A study of Mus musculus with 3 samples.

Results

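The small structural RNAs of the cytosolic fraction of lipid A-stimulated mouse macrophages are described here: the small nuclear RNAs (snRNAs) of the spliceosome, the small nucleolar RNAs (snoRNAs) and the small Cajal body RNAs (scaRNAs). The genes were chosen by their measured counts: all transcripts of the gene carry 1 of these biotypes, and the expected counts of the gene summed over the 3 gene tables come to at least 10. Of 2941 annotated genes of these biotypes, 65 met the rule, and the annotation held 55536 genes in all. The members comprised 32 of 1383 snRNA genes, 26 of 1507 snoRNA genes and 7 of 51 scaRNA genes. Because summed counts chose the members, their levels are given as a description without a test. Of the members, 23 carry the name of a known RNA, and 42 carry only a predicted-gene symbol (Gm and a number).

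All 3 libraries belonged to 1 group: primary macrophages grown from bone marrow (BMDM) of C57BL/6J mice, given lipid A at 100 ng/ml for 60 min, fractionated to the cytosol and sequenced after depletion of ribosomal RNA. Lipid A is the lipid anchor of bacterial endotoxin and the ligand of Toll-like receptor 4. The labels number the libraries as biological replicates 1 to 3 from separate biosamples with 1 shared donor entry, and they give no age or sex. Nothing else ties the cultures to separate mice, so the spread between libraries may be technical. Resting cells and the nuclear fraction were not analysed here, so neither a response to lipid A nor an enrichment in the cytosol was measured. All 8 macrophage markers were at 1 TPM or more, as were 2 of 5 neutrophil markers, 0 of 4 B cell markers, 0 of 4 T and NK cell markers and 0 of 3 erythroid markers. The libraries held 63944236, 71989793 and 69305836 counts on annotated genes, so that 3 counts, the most that a count of 0 allows, equal 0.0469, 0.0417 and 0.0433 CPM (the count scaled to a library of 1e+06 counts) in replicates 1, 2 and 3. Intervals and such limits cover counting error only.

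As background, snRNAs pair with pre-mRNA inside the spliceosome: U1 recognises the start of an intron, U2 the branch point, and U12 does the latter for the minor class of introns. Box C/D snoRNAs guide methylation of ribose, and box H/ACA snoRNAs guide pseudouridylation, chiefly in ribosomal RNA, while U3, U22 and U17 act in cutting the ribosomal RNA precursor. scaRNAs guide the same modifications in snRNAs within Cajal bodies. These RNAs work mainly in the nucleus, although newly made U1 and U2 pass through the cytoplasm to receive their Sm protein ring. Most vertebrate snoRNAs and scaRNAs are trimmed out of introns of other genes, and U1, U2 and U3 are transcribed from genes of their own.

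The sequences below are those on which the results turn, written 5′ to 3′ as DNA from the annotated transcripts (GENCODE M21, build mm10). The first 3 are copies of U2. The capitals in Rnu2-10 (chr11:101658238-101658428, + strand) mark the letters ATTTTTG, which hold the Sm site, and the capitals in the other U2 copies mark bases that differ from Rnu2-10. Gm23472 (chr1:72236946-72237136, + strand) differs by G109C, counted from 1 at the 5′ end, and Gm24497 (chr1:72244213-72244403, + strand) by G109C and C186A. The only difference between Gm23472 and Gm24497 is therefore C186A.
Rnu2-10: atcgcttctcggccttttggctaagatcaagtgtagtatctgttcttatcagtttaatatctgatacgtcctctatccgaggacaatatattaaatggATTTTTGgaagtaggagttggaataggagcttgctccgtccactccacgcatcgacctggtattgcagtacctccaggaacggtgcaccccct
Gm23472: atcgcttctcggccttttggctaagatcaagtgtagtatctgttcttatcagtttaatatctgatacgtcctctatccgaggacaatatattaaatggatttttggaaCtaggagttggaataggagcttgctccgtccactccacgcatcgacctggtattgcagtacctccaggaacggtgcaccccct
Gm24497: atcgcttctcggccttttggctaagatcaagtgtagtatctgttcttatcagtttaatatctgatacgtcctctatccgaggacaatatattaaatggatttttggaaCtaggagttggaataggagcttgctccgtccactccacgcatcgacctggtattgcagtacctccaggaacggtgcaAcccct

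The U1 copies are shown because 7 genes share the sequence of Rnu1a1 (chr11:87422867-87423030, + strand) letter for letter, while Gm22513 (chr12:54696782-54696945, + strand) differs from it by T60C, the base in capitals, and received its counts with almost no uncertainty.
Rnu1a1: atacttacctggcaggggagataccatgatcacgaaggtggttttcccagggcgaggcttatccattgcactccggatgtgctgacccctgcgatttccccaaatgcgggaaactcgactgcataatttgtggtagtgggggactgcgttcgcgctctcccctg
Gm22513: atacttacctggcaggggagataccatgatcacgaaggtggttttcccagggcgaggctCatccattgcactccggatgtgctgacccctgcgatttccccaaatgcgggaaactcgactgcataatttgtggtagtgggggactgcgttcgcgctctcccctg

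The longer of the Rnu3a gene models (chr10:40258467-40258680, + strand) is shown because a shorter model with the same start ends 1 base earlier, before the base in capitals.
Rnu3a: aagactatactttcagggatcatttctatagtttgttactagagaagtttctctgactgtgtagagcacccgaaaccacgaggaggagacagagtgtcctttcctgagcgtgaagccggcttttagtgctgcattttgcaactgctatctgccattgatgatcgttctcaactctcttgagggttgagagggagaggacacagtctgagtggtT

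Snord22 (chr19:8725866-8725991, + strand), an RNA of 126 nt within the noncoding gene Snhg1, and Snord15b (chr7:99479563-99479707, - strand), within the ribosomal protein gene Rps3, are shown as box C/D members whose counts differed widely between libraries. Capitals mark the C box letters TGATGA where they lie in the first 20 bases and the D box letters CTGA in the last 20.
Snord22: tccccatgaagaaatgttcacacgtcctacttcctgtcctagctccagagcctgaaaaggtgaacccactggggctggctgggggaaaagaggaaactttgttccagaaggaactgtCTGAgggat
Snord15b: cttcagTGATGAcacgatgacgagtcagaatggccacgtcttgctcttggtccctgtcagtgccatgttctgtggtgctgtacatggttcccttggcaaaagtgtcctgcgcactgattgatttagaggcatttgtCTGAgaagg

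Snora73a (chr4:132352775-132352979, - strand), a copy of U17, carries the box H/ACA ending, with the ACA 3 bases before the 3′ end in capitals. The last 150 bases of Gm22009 (chr3:69085105-69085447, - strand), the scaRNA with the most counts of all members, are shown with the D box letters CTGA in capitals.
Snora73a: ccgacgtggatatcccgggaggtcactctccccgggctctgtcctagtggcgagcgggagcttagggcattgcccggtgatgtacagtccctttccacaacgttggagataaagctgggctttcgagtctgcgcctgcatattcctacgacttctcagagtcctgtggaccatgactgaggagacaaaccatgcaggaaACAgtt
Gm22009: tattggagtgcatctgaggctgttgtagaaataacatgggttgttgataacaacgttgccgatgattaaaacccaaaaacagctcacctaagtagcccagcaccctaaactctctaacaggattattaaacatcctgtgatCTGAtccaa

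Searched on the RNA's own strand, the letters CTGA stood in the last 20 bases of 4 of 4 box C/D members, against 98.0% of 98 annotated genes named Snord. TGATGA stood in the first 20 bases of 3 of 4, against 71.4% of those annotated, and Snord22 was the member without it. The ACA ending was present in 2 of 3 box H/ACA members, Snora73a and Snora73b, against 83.3% of 42 annotated genes named Snora. ATTTTTG occurred in 14 of 32 snRNA members, among them all 11 U2 copies and Rnu12, against 3.33% of the 1383 annotated snRNA genes. A match is a description of the letters, and it does not show that a site is used.

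Members were found only among the longer genes. The gene tables give each gene an effective length, the number of positions where a fragment of that library could start, and it was 0 in all 3 tables for 1741 of the 2941 genes (59.2%). The longest gene with an effective length of 0 in every table had 123 nt, and the shortest with a value above 0 in every table had 129 nt. The labels give a library size range of 250 to 400 without a unit. Members ran from 126 to 414 nt with a median of 166 nt, against a median of 108 nt over the 2941 genes. None of 679 genes of up to 100 nt and none of 987 genes of 101 to 119 nt was a member. The count of members was 15 of 993 at 120 to 149 nt, 32 of 242 at 150 to 199 nt, 15 of 35 at 200 to 299 nt and 3 of 5 at 300 to 500 nt. In all, 2820 genes (95.9%) were listed at 0, and a further 56 had some count but a sum under 10.

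**Figure D1:**
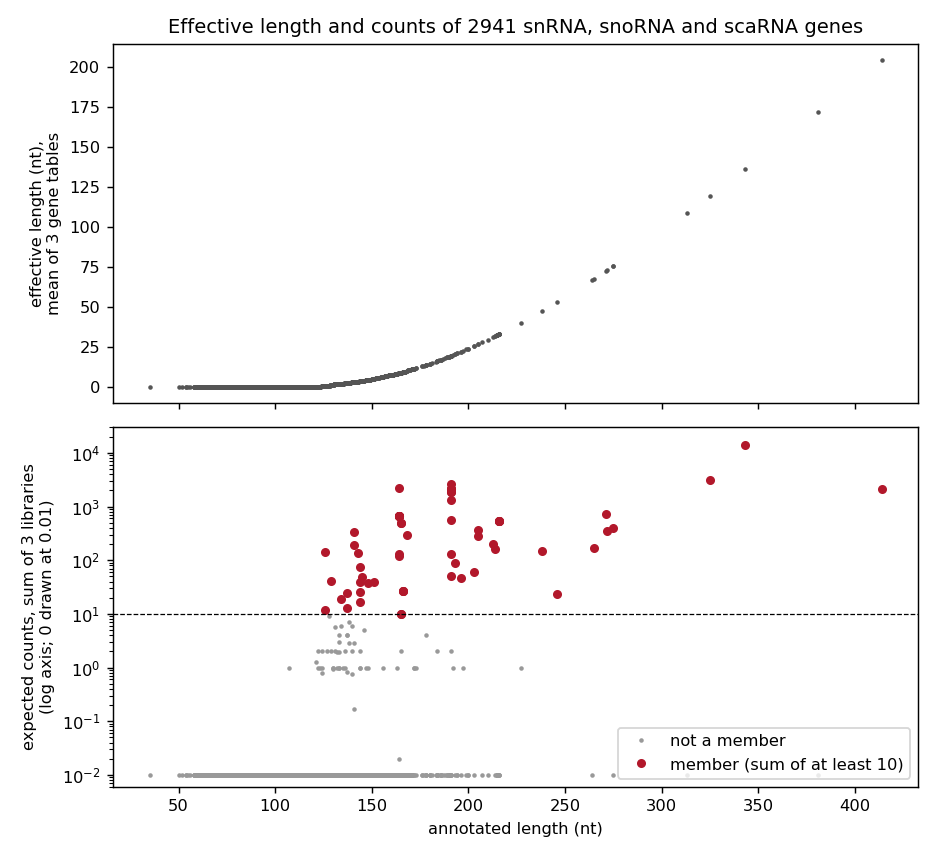
Effective length in nt (top, mean of the 3 gene tables) and summed expected counts (bottom, log axis, genes listed at 0 drawn at 0.01) against annotated length in nt for the 2941 snRNA, snoRNA and scaRNA genes, with the 65 members in red and the minimum of 10 counts as a dashed line. The effective length stays at 0 up to 123 nt, and no gene shorter than 126 nt is a member.

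Groups of guide RNAs, looked up by symbol, fell under this length. Genes of the same hosts under other symbols are not included. The groups were the 4 genes found for the Rpl13a introns, the 4 found for Gas5, 17 Snord116 genes and 4 U14 genes (Snord14a, c, d and e). With 66 to 94 nt, all of them had an effective length of 0 and no count. So did the U7 gene Rnu7, whose RNA acts in histone mRNA processing, the U13 gene Snord13, and the U6 and U5 genes Rnu6 and Rnu5g of the spliceosome. Their zeros say nothing of whether the RNAs were in the cytosol. The U11 gene Rnu11 (134 nt) was also listed at 0, with effective lengths of 2.34, 2.31 and 1.49 in replicates 1, 2 and 3, and the U8 gene Snord118 (135 nt) had 1 count. A second estimate from the same reads gave Rnu5g 62.3 counts in sum, Snord13 13 and Snord118 50. There Rnu6, Rnu7 and Rnu11 stayed at 0. Among the members, Spearman's rho between annotated length and summed count was 0.55 over the 48 distinct count profiles, which share libraries and depth. The summed count also chose the members, so this value is a description only.

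Summed over the 65 genes, the members took 0.0307% of the counts on annotated genes in replicate 1 (95% Wilson interval 0.0303 to 0.0311%), 0.0176% in replicate 2 (0.0173 to 0.0179%) and 0.0271% in replicate 3 (0.0267 to 0.0275%). That was 251 ± 67.6 CPM (mean ± SD, n = 3). In these bulk samples, fewer cells that hold an RNA and less of it per cell cannot be told apart. On the TPM scale, which divides counts by effective length, the same genes took 1.21, 0.340 and 0.771%. The 2 scales order the members differently. Gm22009 had the highest mean count, and its TPM was 255, 211 and 374 in replicates 1, 2 and 3, whereas the U1 copy Gm22513, with an effective length of under 10 nt, had 1117, 307 and 903 TPM. Counts per gene are therefore not read as an order of abundance here.

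U2, the branch point snRNA, had the most counts of the snRNA families. Its 11 members, each at least 80% identical to Rnu2-10, summed to 110, 57.7 and 85.3 CPM in replicates 1, 2 and 3, or 84.2 ± 25.99 CPM (mean ± SD, n = 3). Replicate 1 was the highest and replicate 2 the lowest. Within the family, Rnu2-10, Gm23849, Gm23971 and Gm24950 have 1 sequence and were each given 945, 488 and 689 counts, a sum of 42.0 ± 16.1 CPM. Equal counts on identical sequences are reads shared out among copies, and the expected count had a posterior SD of 647 on the 945 counts of Rnu2-10 in replicate 1. Only the sum of such copies is a measurement. Gm25939, which differs from Rnu2-10 by T69C, C78T and G109C, had 907, 787 and 996 counts with a posterior SD of 0.590 in replicate 1, and its CPM varied least of the members with a sum of at least 100, by 1.31 times between the highest and the lowest library. Gm26316, which differs from Rnu2-10 by C170T, had 106, 10.8 and 16.7 counts, and its CPM differed by 11.0 times.

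Copies that differ by a single base changed places between libraries. Gm23472 and its identical copy Gm23444 were each given 958, 30.3 and 921 counts in replicates 1, 2 and 3, and Gm24497, which differs by C186A, was given 8.71, 1242 and 87.5. Read alone, Gm24497 was 127 times higher in replicate 2 than in replicate 1, and Gm23472 was 35.7 times higher in replicate 1 than in replicate 2. These were the largest ratios among the 43 members with a sum of at least 100, leaving out those with a library at 0. The sum of the 3 genes was 30.1, 18.1 and 27.8 CPM, or 25.3 ± 6.38 CPM (mean ± SD, n = 3), with replicates in the same order as the whole family. In the second transcript tables, which estimate counts from the same reads in another way, Gm23472 had 782, 499 and 732 counts and Gm24497 894, 629 and 877. There the swap was absent. The posterior SD of Gm24497 in the gene tables was 496, 265 and 322 counts, larger than the count itself in replicates 1 and 3.

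**Figure D2:**
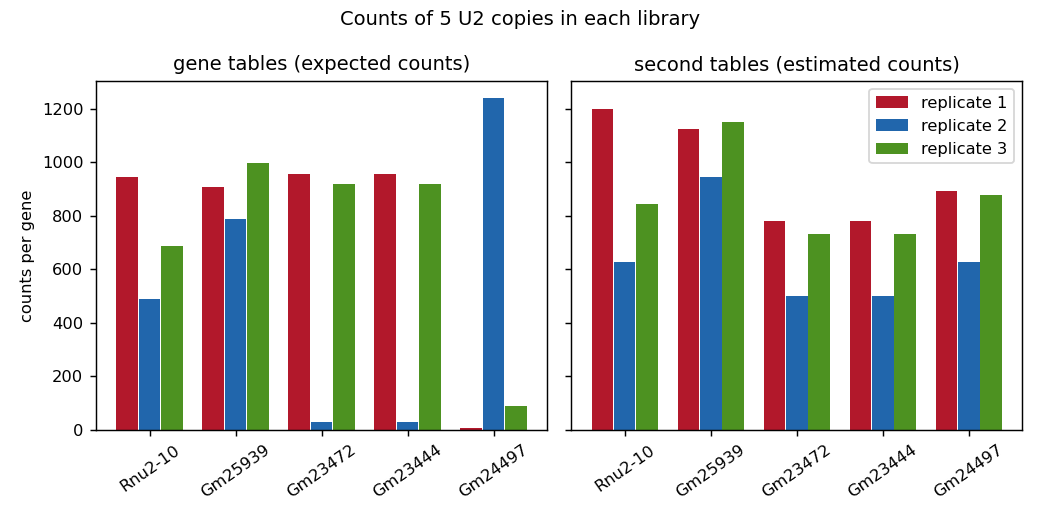
Counts per gene for 5 U2 copies in replicates 1 to 3, in the gene tables (left, expected counts) and in the second transcript tables (right, estimated counts). Gm24497 holds 1242 counts in replicate 2 and 8.71 in replicate 1 on the left, and 629 and 894 on the right.

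U1, which marks the start of an intron, had 17 members that summed to 59.3, 22.6 and 42.3 CPM in replicates 1, 2 and 3, or 41.4 ± 18.3 CPM (mean ± SD, n = 3). The 7 genes with the sequence of Rnu1a1 (Rnu1a1, Gm22068, Gm22317, Gm22634, Gm23804, Gm25679 and Gm26444) were each given 310, 134 and 236 counts and summed to 23.6 ± 10.5 CPM. Gm22513 alone had 978, 436 and 821 counts, or 11.1 ± 4.67 CPM, with a posterior SD of at most 0.370, and its 1 differing base separates its reads from the other copies. The genes named U1b were low. Rnu1b6 and its 2 identical copies were given 11.9, 8.16 and 7.03 counts each, and Rnu1b1 and Rnu1b2 3.06, 1.51 and 5.55 each. The identical pair Gm22614 and Gm25890 was higher, at 208, 101 and 195 counts each. Gm24924, in an intron of Ss18, had 129 counts in replicate 1, 0 in replicate 2 and 0.0200 in replicate 3, with posterior SDs of 89.2, 68.1 and 103 counts, so this difference also lay within the uncertainty of sharing reads among copies.

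The minor spliceosome was represented by Rnu12, the U12 gene, with 25, 8 and 7 counts. Replicate 1 was highest there too. The second tables gave Rnu12 117, 104 and 128 counts, 8.72 times as many in sum, with the highest count in replicate 3. Gm24265 and Gm24407 are neighbouring snRNA genes of 141 nt with no given RNA name, and nothing here places them in the minor spliceosome. They had 203, 65 and 70 counts and 113, 41 and 35 counts. Both were highest in replicate 1, and their CPM differed by 3.52 and 3.50 times between the highest and the lowest library.

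The scaRNAs, which guide modification of the snRNAs, summed to 97.6 ± 22.7 CPM over 8 members (mean ± SD, n = 3), Scarna10 included, whose biotype is snoRNA. Gm22009, of 343 nt in an intron of the nuclear import gene Kpna4, made up most of this. It had 3216, 4365 and 6229 counts, or 50.3, 60.6 and 89.9 CPM, and held between 16.4 and 34.5% of all members' counts in a library. Its highest library was replicate 3 and its lowest replicate 1. The host Kpna4 had 136, 127 and 127 CPM, with its highest value in replicate 1. Scarna10, within the condensin gene Ncapd2, where it overlaps an exon of a retained-intron transcript, and of mixed box C/D and box H/ACA type, had 1187, 735 and 1142 counts. Scarna2, which lies in no other gene, had 840, 487 and 790 counts. Both were lowest in replicate 2. The 7 scaRNAs other than Gm22009 summed to 38.1, 20.3 and 33.6 CPM. Among them Scarna13, in Snhg10, had 177, 94 and 132 counts, and Gm25395 and Scarna6, both in introns of the autophagy gene Atg16l1, had 128, 74 and 154 and 63, 38 and 65 counts. Gm26083, in the noncoding gene Snhg20, where it overlaps an exon, was even at 29.8, 26.8 and 32.8 counts.

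U3, the snoRNA that helps to cut the ribosomal RNA precursor, had 6 members summing to 23.7, 6.404 and 7.26 CPM in replicates 1, 2 and 3, or 12.5 ± 9.76 CPM (mean ± SD, n = 3). Replicate 1 stood apart and the other libraries were close together. Rnu3b1, Rnu3b2, Rnu3b3 and Rnu3b4 have 1 sequence of 216 nt and were each given 314, 104 and 112 counts. Each also has a gene model of 215 nt at the same start that was listed at 0. The Rnu3a models of 213 and 214 nt differ only by the last base. The shorter was given 149, 47 and 5.77 counts and the longer 112, 0 and 50.2. Together they had 4.08, 0.653 and 0.808 CPM. The second tables gave all of their counts (426, 112 and 150) to the longer model and none to the shorter. The split between both models is thus set by the estimation, and only their sum is read here.

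The other snoRNAs of ribosomal RNA processing were low in count. U17 is encoded by Snora73a and Snora73b, which lie within Rcc1. Snora73b had 235, 53.6 and 81.4 counts and Snora73a 184, 49.7 and 50.6, both with replicate 1 above the others. Snora73a overlaps an exon of Snhg3, so reads of the host and of the snoRNA are not separable there. Snora74a, which overlaps an exon of a retained-intron transcript of AC121821.1, had 29.7, 4.84 and 11.6 counts. The 3 box H/ACA members together came to 7.02, 1.503 and 2.07 CPM. Snord22, the U22 RNA, had 91.96, 17.99 and 31.98 counts. It overlaps an exon of Snhg1, its host, so reads of both are not separable there either. Its effective length was 1.28, 1.26 and 0 in replicates 1, 2 and 3, and its TPM was therefore 796, 96.3 and 0, the last a zero beside 31.98 counts.

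The 3 further box C/D members also had their highest count in replicate 1. Snord17, of 238 nt in an intron of Snx5, had 104, 16 and 29 counts. Snord15a and Snord15b, both within Rps3 and guides of ribosomal RNA methylation, had 26, 4 and 7 counts and 42.8, 1.71 and 3.85 counts. Snord15b overlaps an exon of a retained-intron transcript of Rps3, so its reads are not separable from the host's there. The host Rps3 had 244, 242 and 210 CPM in replicates 1, 2 and 3. The 4 box C/D members summed to 4.14, 0.551 and 1.04 CPM, so replicate 1 was 7.51 times replicate 2.

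The 12 snoRNAs with only a predicted-gene symbol summed to 9.20, 4.69 and 7.94 CPM. Gm23547, of 271 nt in the prohibitin gene Phb2, led them with 246, 209 and 269 counts, and it overlaps exons of Phb2 transcripts of the processed and retained-intron types. Gm23262, in the translation factor gene Eif4g2, had 129, 59.6 and 112 counts. It overlaps an exon of a processed transcript of Eif4g2, so its reads are not separable from the host's there. Gm25776, in Gtf2a1, had 37, 29 and 73 counts and was highest in replicate 3. Gm22988 and Gm25835 both lie in Eif4a1, which encodes the translation initiation helicase, and had 36.6, 11.8 and 26.8 and 33, 2 and 4 counts. Gm22988 overlaps an exon of a retained-intron transcript of Eif4a1. Gm26448, in the ribosomal protein gene Rpsa, had 27, 5 and 29 counts. Gm26447, in Eif4a2, had 24.9, 6.99 and 8.98 counts and overlaps an exon of a retained-intron transcript there. Gm24119, in the mitochondrial phosphate carrier gene Slc25a3, had 15, 2 and 6 counts, and Gm26397, in the mitochondrial import receptor gene Tomm20, had 11, 2 and 6. By count, Gm26448 was the 1 of these 4 not highest in replicate 1. Scaled to depth it was at 0.422, 0.0695 and 0.418 CPM, so replicate 1 was slightly the highest. The host Eif4g2 had 51579, 56609 and 53823 counts.

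Of the 33 snoRNA and scaRNA members, 30 lay within another gene on the same strand, against 7 of 32 snRNA members. The 30 include the U3 genes Rnu3b1 to Rnu3b4, within Tex14, whose mean was 0.0736 CPM. Lying within a gene does not show that an RNA is cut from its intron. Spearman's rho between mean member CPM and mean host CPM was -0.26 over the 27 distinct count profiles of snoRNA and scaRNA members with a host, which share libraries and in part hosts. In all, 12 members overlapped an exon of another gene on the same strand, 8 of them an exon of a retained-intron transcript, and none of these 12 was an snRNA. Those 12 summed to 24.0 ± 7.99 CPM, and the other 53 to 227 ± 59.8 CPM. A gene on the opposite strand overlapped 4 members (Snora73a, Snora73b, Rnu1b6 and Gm26232), of which Snora73a is also among the 12, and the strand setting of the counting is unknown, so their reads cannot be told from those of the partner gene.

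**Figure D3:**
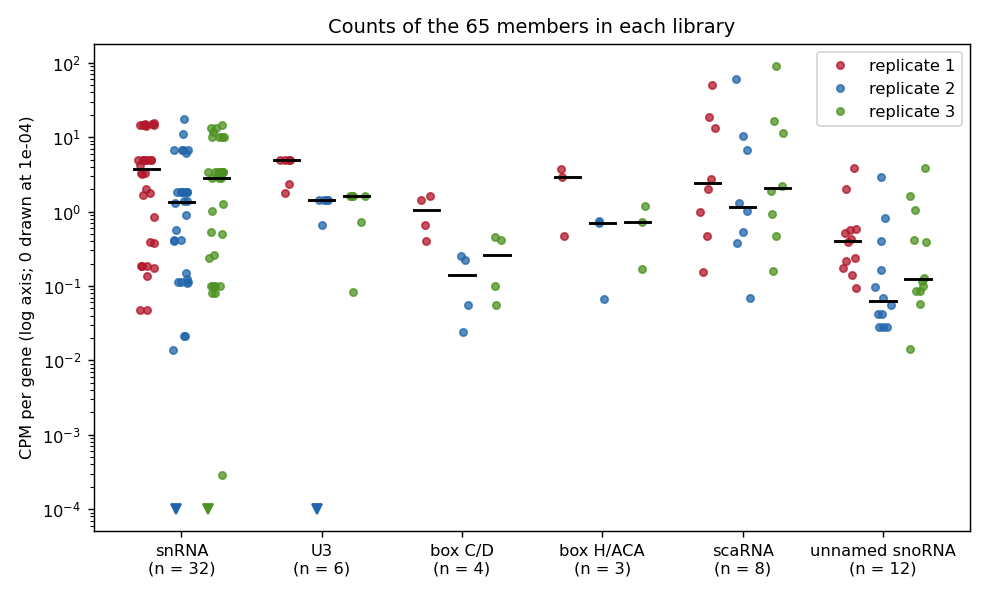
CPM per gene (log axis) of the 65 members in replicates 1 to 3, by class, with the median of each library as a black bar and values of 0 drawn as triangles at 1e-04. In each class the median bar of replicate 1 is the highest, and single snRNA copies reach from 0 to above 10 CPM.

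The split of each gene's counts among the 3 libraries was not used by the rule and could be tested. A Poisson fit in edgeR, which allows for counting error alone, called 9069 of 16017 genes with a sum of at least 10 (56.6%) at an adjusted p under 0.05, and 55 of the 65 members. The members' share was 84.6%. Because the share called depends on depth, it was also read by summed count. Of members with sums of 10 to 30 counts, 4 of 12 were called, against 22.4% of all genes there, and from 30 to 100 counts 9 of 10, against 31.2%. From 100 to 300 counts 11 of 11 members were called, against 40.2% of all genes. The share was 19 of 20 from 300 to 1000 counts, against 47.2%, and from 1000 to 3000 counts 10 of 10, against 54.4%. Above 3000 counts both members, Gm22009 and Scarna10, were called, against 75.6% of genes with up to 15000 counts. Single copies share reads, so their counts are not independent. Identical copies were counted separately in these ranges. The 20 hold 7 with the sequence of Rnu1a1, 4 with that of Rnu3b1 and 2 with that of Gm22614. The 10 hold 4 with the sequence of Rnu2-10 and 2 with that of Gm23444. The 12 hold 3 with the sequence of Rnu1b6 and 2 with that of Rnu1b1, none of them called. With the copies of U1, U2 and U3 each summed into 1 value, 29 of 34 were called, and each of the 3 families was among them. Without replicate 1, 31 of 64 members were called, against 40.5% of all genes.

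Members called included Gm22009 (adjusted p = 3.4e-176), Scarna10 (1.3e-27), Snora73b (3.5e-33), Snord22 (3.2e-14), Snord15b (3.1e-14) and Rnu12 (0.0012). The call of Rnu12 rests on 25, 8 and 7 counts in replicates 1, 2 and 3. In the second tables it had 117, 104 and 128, without the high replicate 1. All 4 box C/D members, all 3 box H/ACA members and all 6 U3 members were called, as were 27 of 32 snRNAs, 6 of 8 scaRNAs and 9 of 12 unnamed snoRNAs. Copies that share reads were counted separately here, so these are not independent calls. The 6 U3 members are 4 copies of 1 sequence and the 2 Rnu3a models. The fit does not take in the posterior SD of shared reads, so calls of single copies such as Gm24497 and Gm24924 are not read as differences of those genes. The 10 members not called were Gm23547 (adjusted p = 0.075), Gm22486, Gm25848, Gm26083 (0.85), Gm22442, Rnu1b6, Gm24830, Gm26232, Rnu1b1 and Rnu1b2. All but Gm23547 and Gm26083 had fewer than 30 counts in sum, where a difference was hard to detect. The biological coefficient of variation in edgeR estimates the spread between libraries beyond counting error. Its median was 0.407 over the members and 0.160 over the 16017 genes. Each gene's value is drawn toward those of genes with similar counts, and these medians were not matched on depth. Gm26083, which was not called, had 0.271, above Gm22009 at 0.195. By class the median was 0.281 for scaRNAs, 0.338 for snRNAs and 0.440 for U3. It was 0.50 for unnamed snoRNAs, 0.523 for box H/ACA and 0.642 for box C/D. Identical copies entered these medians separately, so the U3 value is that of Rnu3b1 to Rnu3b4.

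The libraries had 1 prevailing order. Of the 65 members, 54 had their highest CPM in replicate 1, against 45.0% of the 16017 genes, and 55 had their lowest in replicate 2, against 53.9%. Some members passed the minimum sum only through replicate 1, such as Gm24924 (129, 0 and 0.0200 counts in replicates 1, 2 and 3) and Gm25541 (11, 1 and 0). The 16017 genes passed the same minimum. With identical counts counted once, 38 of 48 were highest in replicate 1. The median ratio of replicate 1 to replicate 2 in CPM was 2.61 over the 63 members above 0 in both, and 1.09 over all genes. Identical copies entered this median and the 55 separately. The median is the ratio of the 7 genes with the sequence of Rnu1a1, whose counts are 1 shared measurement. By summed class it was 7.51 for box C/D, 4.67 for box H/ACA, 3.70 for U3, 2.13 for snRNAs, 1.96 for unnamed snoRNAs and 1.09 for scaRNAs, which fell to 0.993 with TMM scaling. Without Gm22009 the scaRNAs stood at 1.88. Levels in which replicate 1 weighed most were lower without it: the mean fell from 12.5 to 6.83 CPM for U3, from 3.53 to 1.79 CPM for box H/ACA and from 1.91 to 0.794 CPM for box C/D. Only 1 member had its highest CPM in replicate 2, the U2 copy Gm24497, and 10 had it in replicate 3.

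Nuclear transcripts moved between the same libraries. Malat1 had 2290, 956 and 2466 CPM in replicates 1, 2 and 3, Neat1 309, 102 and 257, Xist 204, 19.0 and 72.4, and Kcnq1ot1 10.6, 1.22 and 3.39. All 4 were lowest in replicate 2, as were most members, and Neat1, Xist and Kcnq1ot1 were highest in replicate 1. The 7SK RNA Rn7sk had 6593, 9320 and 13608 CPM, the order that Gm22009 also followed. The cytosolic 7SL RNA Rn7s1 had 40273, 71637 and 52347 CPM and was highest in replicate 2, as was Rn7s2. The cytosolic mRNAs looked at varied less. Actb had 5234, 5676 and 6604 CPM, highest in replicate 3, and Eef1a1 had 4610, 4960 and 4303 CPM, highest in replicate 2. The part of nuclear RNA in the fraction, or of the 7SL share, in the order of the members was not tested.

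**Figure D4:**
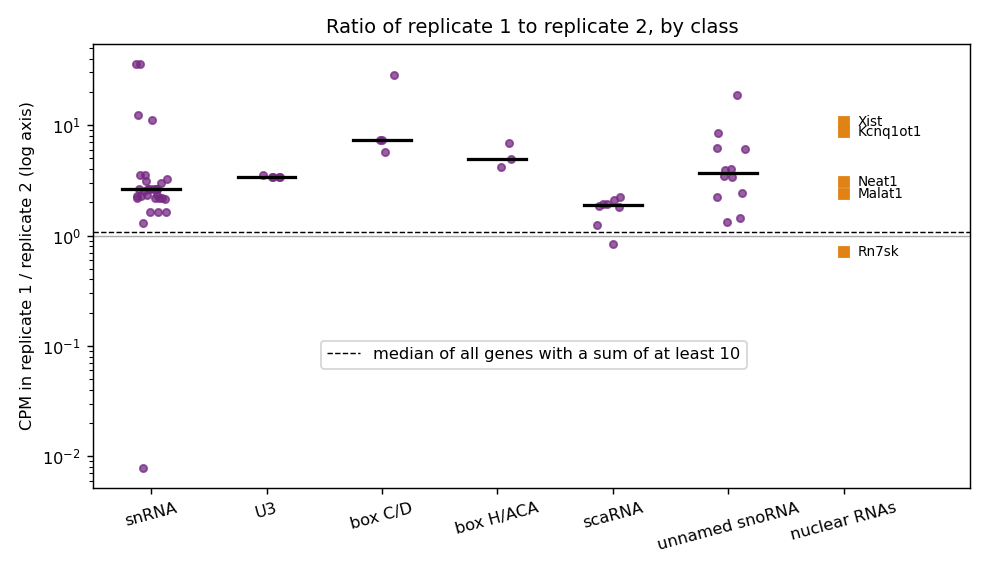
CPM in replicate 1 divided by CPM in replicate 2 (log axis) for each member above 0 in both libraries, by class, with class medians as black bars, 5 nuclear RNAs as squares and the median of all genes (1.09) as a dashed line. Nearly all members lie above the line, and the lowest point is the U2 copy Gm24497.

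The second transcript tables gave most members more counts. The sum was higher there for 63 of 65 members, with a median ratio of 1.26, and Spearman's rho between both sums was 0.94 over the 65 members, which rest on the same reads. A few short genes differed more. Gm25541, of 126 nt, had 11, 1 and 0 counts in the gene tables and 70, 49 and 35 in the second tables, a ratio of 12.8 in sum. Gm22442, a scaRNA of 144 nt in the chromatin remodeller gene Chd3, had 10, 5 and 11 counts and then 82, 57 and 80, a ratio of 8.42. The shorter Rnu3a model was the 1 member with no count in the second tables.

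**Figure D5:**
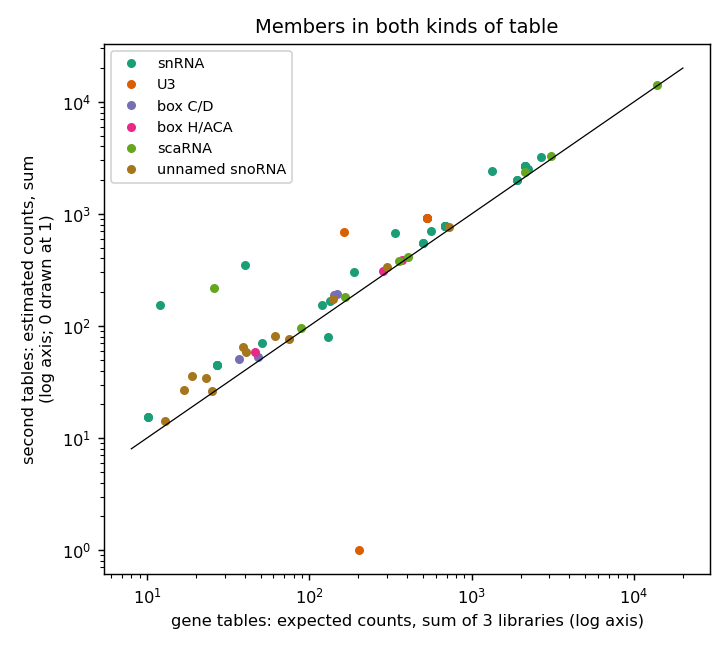
Summed expected counts of the gene tables (horizontal log axis) against summed estimated counts of the second transcript tables (vertical log axis, 0 drawn at 1) for the 65 members, coloured by class, with the line of equality. Of the members, 63 lie above the line, and the point at the bottom is the shorter Rnu3a model.

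Near the minimum of 10 counts the list was set by few reads. Just inside were Rnu1b1 and Rnu1b2 at 10.1 counts each, Gm25541 at 12, Gm25791 at 12.9 and Gm25848 at 17. Just outside were Snora78 at 9, Gm26165 at 7, Gm23442 and Scarna3a at 6 each and Snora68 at 5.74. All counts of Snora78, Gm26165, Scarna3a and Snora68 were in replicate 1. In the second tables Snora78 had 35 counts and Scarna3a 20, so that a minimum of 10 there would have included both.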

How the data were processed

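Each library came with a gene table, its transcript table and a further transcript table from a second estimate. Per the file headers, the deposited gene tables give expected counts, TPM and effective length in columns named as RSEM writes them, with a posterior SD of the count, and the second tables give estimated counts and TPM in columns named as kallisto writes them. The deposited TPM divides counts by effective length, the authors' own value. The build is mm10 with annotation M21 per the deposited description files, while the aligner, the versions and the strand setting are unstated (not given in the sources used here). The first transcript tables were not used. Members and gene lists were chosen with earlier results of these data known.

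CPM is the expected count divided by the library's counts on annotated genes, times 1e+06. Rows of no annotated gene, left out, held 0.260, 0.0933 and 0.0577% of counts in replicates 1, 2 and 3. Second-table counts were summed per gene. Expected counts, rounded, were fitted in edgeR 4.0.16 (R 4.3.3) with TMM sizes, an intercept and a dispersion of 0; the deviance on 2 degrees of freedom gave p, adjusted by Benjamini-Hochberg over 16017 genes with a sum of at least 10, at 0.05. The script was tested on simulated data. With 1 group, no conditions were compared. DESeq2 1.42.0 gave alternative size factors. Python 3.11.15, numpy 2.4.6, pandas 2.3.3 and scipy 1.17.1 did the rest.

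Named genes were the 10 highest by mean CPM of each class, members of fixed lists (spliceosomal, U3, U7, U8, U13, U14, U17, Snord22 and host clusters), the 5 nearest each side of the minimum, and, of those with a sum of at least 100, the 5 largest and 5 smallest ratios between libraries and those with identical counts. Names, positions, hosts and sequences came from GENCODE M21. Sequences were to be those of the 2 highest of each class and of identical-count members, of which some are printed; those of Gm24497, Snord15b and Rnu3a were chosen after their values were seen.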

Additional observations from a re-analysis of the deposited data

Results flagged for a closer look

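Counts outside the gene tables pointed to further small RNAs. Listed at 0 in the gene tables, 64 snRNA, snoRNA and scaRNA genes had at least 10 estimated counts in sum in the second transcript tables. Gm25047, an snRNA gene of 104 nt, had 347, 392 and 427 counts there, 1166 in sum, and did not share the high replicate 1 of most members. Gm24339, a snoRNA gene of 76 nt, had 174, and Gm23238, an snRNA gene of 164 nt, had 166, of which 122 were in replicate 1. Gm25047 and Gm24339 had an effective length of 0 in the gene tables, and Gm23238 had a mean of 8.78.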

How the results depend on the processing

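The number of members called, 55 of 65, was 55 with DESeq2 size factors (56.4% of all genes), 57 with total counts (58.0%), 53 with no filter (40.2%), 55 of 64 in the second tables (56.4%) and 39 of 41 under filterByExpr (63.3%). Leaving out 1 library gave 31 to 54, the lowest without replicate 1, against 39.9 to 40.5% of all genes. Summing the U1, U2 and U3 copies, chosen after seeing the data, gave 29 of 34, since fewer units were tested. Over all genes the 9069 calls of 16017 ranged from 6390 of 16011 without replicate 3 to 11749 of 20816 in the second tables. A minimum of 5 or 30 counts gave 71 or 53 members, identical counts counted once gave 48, and a minimum of 10 in the second tables gave 150; the cause was not tested. Without members that overlap an exon, the summed share of counts was 0.0275, 0.0160 and 0.0246% in replicates 1, 2 and 3, and without Gm22009, an alternative chosen after seeing the data, 0.0257, 0.0115 and 0.0181%. The second tables gave shares within the counting intervals. The median biological coefficient of variation was 0.477 without members with identical counts (all genes 0.160) and 0.317 under filterByExpr (all genes 0.122). Members highest in replicate 1 numbered 53 with TMM sizes and 54 of 64 in the second tables. The share of all genes highest in replicate 1 is not given under these settings, so the excess over all genes cannot be judged there. The ratio of replicate 1 to replicate 2 turned only for scaRNAs, from 1.09 to 0.993 with TMM sizes, which shift every such ratio, all genes included, by -0.14 on the log2 scale. The mean CPM of the 65 members moved by more than its SD for 7 in the second tables and for none with TMM sizes. Without replicate 1 it fell over 1.5 times for 25 members, among them all U3, box C/D and box H/ACA members and Gm24924 (0.675 to 0.00014 CPM), without replicate 2 for 1, Gm24497 (6.22 to 0.70 CPM), and without replicate 3 for 0. No logarithm was taken of TPM, so pseudocounts were not run. No paired analysis was possible because the series holds 1 group. Depth limits members with sums under 30 counts. Genes of up to 119 nt had an effective length of 0 and 1 count in all.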
